A study of Mus musculus with 6 samples.

Results

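The response of GC2-spd cells to triptonide was read from 4 of the 6 libraries of the series, namely the 2 triptonide libraries and the 2 control libraries. The 2 libraries of cells exposed to triptolide, spelled Tiptolide in the sample labels, entered only through the filter on low values and the estimate of spread. GC2-spd is a mouse line that the labels call a spermatocyte line, and the lines of this name are known to have been immortalised with SV40 large T antigen. All groups share this line, its serum-containing medium and its plating at 100000 cells per well. Per the labels' protocols, a 12 h culture in 2 mL was followed by 24 h with 0.1 µM triptolide. The protocol carries the same wording for every sample, so neither the dose and time of triptonide nor the vehicle of the control cells is given. Whether both libraries of a group were grown as separate cultures is not labelled, and the p-values below speak only of the spread between these libraries, which may be technical.

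Triptonide is a diterpenoid epoxide from Tripterygium wilfordii, the thunder god vine of Chinese medicine, and a ketone analog of triptolide. Triptolide is known to bind XPB, the helicase of the initiation factor TFIIH, and to block initiation by RNA polymerase II. When new synthesis of RNA falls, short-lived transcripts are lost before long-lived ones, so the level of a transcript after a day reflects both its synthesis and its decay. Abundant and rare transcripts therefore need not move alike, and they also differ in how precisely sequencing measures them.

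The readout was the FPKM of each transcript (fragments per kilobase, scaled to the mapped fragments of each library), as deposited by the authors. FPKM is a relative scale, so a general loss of RNA per cell, or of cells, cannot be seen in it. The table holds 65535 transcripts, of which 65189 have mouse Ensembl transcript IDs and 346 have locus numbers of an assembly. The files do not pair IDs with genes, and 0 IDs were found in the tables of gene names, so gene names, gene lists, cell type markers and sequences could not be attached, and at most 4 IDs are printed. Low FPKM values stepped in whole fragments and gave relative depths of 0.763 and 0.737 for the triptonide libraries and 0.818 and 1.0 for the control libraries. More transcripts were nevertheless listed above 0 FPKM in the triptonide libraries, at 40956 and 41054, than in the control libraries, at 36592 and 37997. Absolute depth is unknown.

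A total of 23407 transcripts reached 0.5 FPKM in at least 2 of the 6 libraries and were tested on log2(FPKM + 0.5), a scale that understates the change of low transcripts. Triptonide changed 2488 of them against control at a limma adjusted p under 0.05, which is 10.6% of those tested. Of these, 1468 rose, or 6.27%, and 1020 fell, or 4.36%. Pooled over all tested transcripts, rises were the larger changes, which did not hold within every abundance class below. At least 2-fold were 835 rises, 3.57% of the tested transcripts, against 240 falls, or 1.03%. The median log2 fold change was 1.09 among rises and -0.71 among falls, while that of all tested transcripts was -0.01.

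Each transcript was placed in an abundance class by its mean FPKM over the 2 triptonide and 2 control libraries, which favours neither direction. The filter ran over all 6 libraries, so a transcript low in control or triptonide could enter through the triptolide libraries. The share of transcripts called was 7.38% under 1 FPKM and 5.70% between 1 and 3 FPKM. It was 11.5% between 3 and 10, 22.1% between 10 and 30, 28.9% between 30 and 100, and 37.3% at 100 FPKM and over. The balance of the calls turned along the same axis. Rises made up 86.1% of the calls under 1 FPKM, 76.3% between 1 and 3, and 52.3% between 3 and 10. Above that, falls held the majority, with 61.2% of the calls between 10 and 30 FPKM, 62.8% between 30 and 100, and 56.3% at 100 and over.

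**Figure D1:**
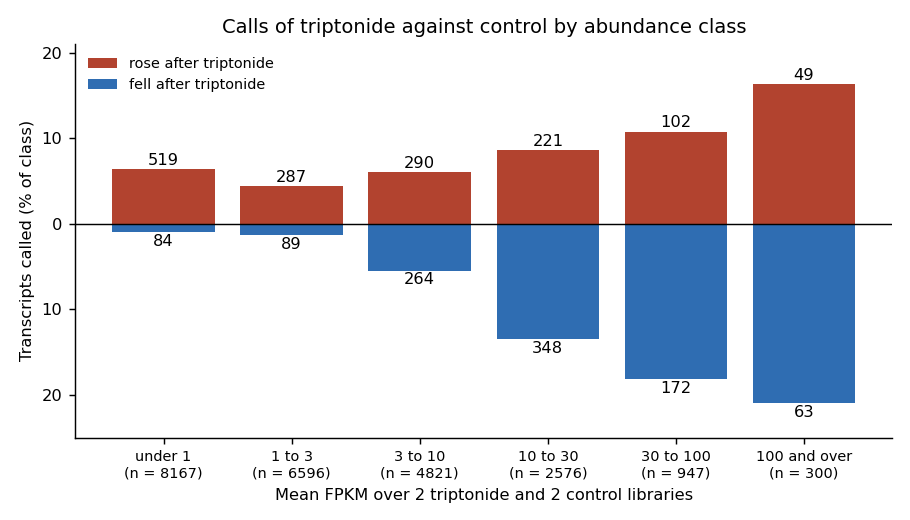
Percent of the tested transcripts of each abundance class that rose (bars above 0) or fell (bars below 0) after triptonide against control, with the number of transcripts at each bar; classes are limits on the mean FPKM over the 4 libraries. Rises outnumber falls by 519 to 84 under 1 FPKM, and falls outnumber rises by 348 to 221 between 10 and 30 FPKM.

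Transcripts under 1 FPKM gave the most rises of any class, 519, which is 35.4% of all rises, and only 84 falls. The median log2 fold change was 1.18 among the rises and -1.20 among the falls. Most of these rises started from a control level below the filter: 414 of the 519 reached 0.5 FPKM in the 2 triptonide libraries but in neither control library. Such transcripts passed the filter through the higher group and had to differ, so their count is not separate support for a rise. The same holds in the other direction, where 82 of the 84 falls reached 0.5 FPKM in the 2 control libraries but in neither triptonide library. The class held 1086 transcripts of the first kind and 597 of the second, called or not, and these counts carry the same limit. In 149 of the rises both control libraries were listed at 0 FPKM, and in 18 of the falls both triptonide libraries were. A value of exactly 0 may be an estimate that failed.

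The class limits bear on this excess. With the same limits set on the triptonide mean alone, which favours falls, there were 303 rises and 159 falls under 1 FPKM. With the limits set on the control mean alone, which favours rises, there were 817 and 42. The filter mattered too. Applied to the 4 triptonide and control libraries, with limits on the mean of both groups, it left 443 rises and 95 falls under 1 FPKM. Over all classes it gave 1422 rises and 1076 falls. The median log2 fold change under 1 FPKM was 0.09 with limits on the mean of both groups, -0.03 on the triptonide mean and 0.21 on the control mean. On the mean of both groups, that median was 0.02 with the filter applied to the 4 triptonide and control libraries or with no filter, 0.01 after quantile normalization and 0.38 with a filter at 1 FPKM. The rises therefore outnumbered the falls under all 3 ways of setting the class, while the median of the class changed sign.

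Between 1 and 3 FPKM, 287 transcripts rose and 89 fell, and the typical sizes of these calls exceeded those of every other class. The log2 change needed for a call at the median standard error was also largest there, at 1.25. Over all transcripts, called or not, the median size was 0.35 there and 0.35 under 1 FPKM. How far the order among calls comes from the scale and the threshold was not tested. The median log2 fold change was 1.75 among the rises and -1.37 among the falls, and 87.5% of the rises and 77.5% of the falls were at least 2-fold. Over all 6596 transcripts of this class the median log2 fold change was -0.04, with quartiles of -0.37 and 0.32. Between 3 and 10 FPKM rises and falls came near to balance, at 290 and 264. Rises were still the larger changes there, with 53.8% of the rises and 26.5% of the falls at 2-fold or more.

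Transcripts at 10 FPKM and over were 16.3% of those tested and held 38.4% of all calls, with 372 rises and 583 falls. These were mostly small shifts. Between 10 and 30 FPKM the median log2 fold change was 0.59 among the 221 rises and -0.59 among the 348 falls, and 19.9% of the rises and 7.47% of the falls reached 2-fold. Between 30 and 100 FPKM 102 transcripts rose and 172 fell, with medians of 0.44 and -0.47. The whole classes leaned downward, with median log2 fold changes of -0.11 between 10 and 30 FPKM and -0.06 between 30 and 100 FPKM, against -0.01 over all tested transcripts. These medians were -0.05 and -0.00024 after scaling to the sum of all but the 100 most abundant transcripts, and -0.03 and 0.00097 after quantile normalization, so the lean between 30 and 100 FPKM was not seen under those scalings.

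At 100 FPKM and over, 49 transcripts rose and 63 fell among 300. A single rise and 7 falls reached 2-fold, and the median log2 fold change was 0.37 among the rises and -0.65 among the falls. The median of all 300 was 0.04. At the very top, a limit chosen after the values were seen, 17 transcripts had a mean of 1000 FPKM or more. Of these 8 rose and 0 fell, with log2 fold changes of 0.40 to 0.93.

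**Figure D2:**
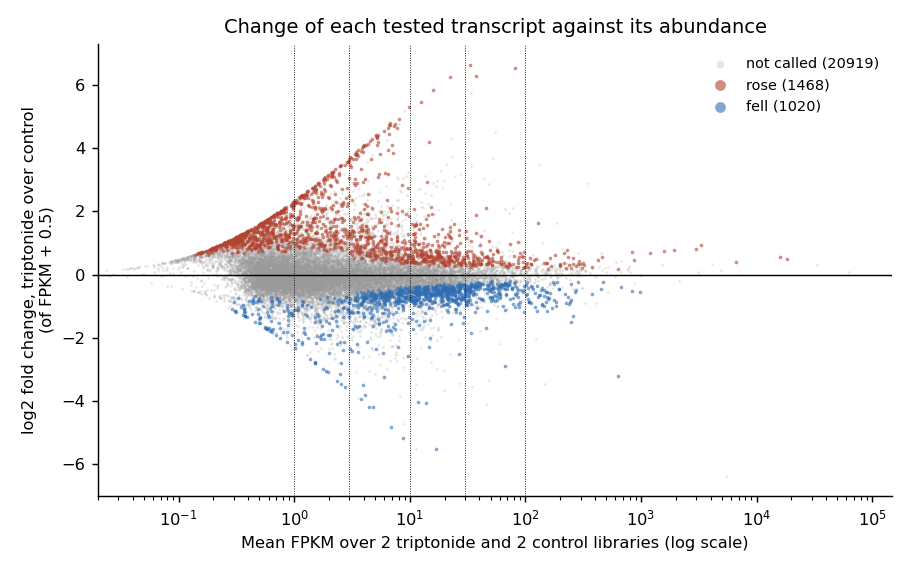
Log2 fold change of FPKM + 0.5, triptonide over control, for tested transcripts with a mean of at least 0.02 FPKM, against the mean FPKM over the 4 libraries on a log axis; each point is 1 transcript, coloured by its call, and dotted lines are the class limits. The upper edge is lined by the 421 of 1468 rises with control values below 0.1 FPKM, whereas most of the 1020 falls lie in a band at 3 FPKM and over.

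Calls were also counted by how low the lower group was. Such transcripts could pass the filter only through the higher group or the triptolide libraries, so these counts are a description and no separate support. Both control libraries were below 0.1 FPKM for 421 of the 1468 rises, or 28.7%, and both triptonide libraries were below 0.1 FPKM for 52 of the 1020 falls, or 5.10%. Among changes of at least 2-fold these were 339 of the 835 rises and 51 of the 240 falls. Transcripts present at 0.5 FPKM or more in all 4 libraries gave 717 rises and 885 falls, of which 232 and 131 were at least 2-fold. The number of tested transcripts at each of these levels is not given. These counts therefore cannot tell whether such transcripts were called more often than tested transcripts in general.

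The summed FPKM of a class was also compared. Transcripts under 1 FPKM, tested or not, summed to 8156 and 8164 FPKM in the triptonide libraries, against 6689 and 7328 FPKM in the control libraries. Those between 10 and 30 FPKM summed to 42594 and 42277 FPKM in the triptonide libraries, against 45066 and 45268 FPKM in the control libraries. In both classes the groups did not overlap, with a ratio of 1.16 and of 0.94. As a share of the summed FPKM of each library the groups did overlap under 1 FPKM, at 2.06% and 2.17% after triptonide and 1.80% and 2.10% in control. Between 3 and 10 FPKM, where rises slightly outnumbered falls, the sums were lower after triptonide, at 26468 and 26406 FPKM against 27178 and 27367 FPKM in control, a ratio of 0.97. At 100 FPKM and over the sums were 259107 and 241739 FPKM after triptonide, against 232458 and 209209 FPKM in control, a ratio of 1.13, although falls outnumbered rises there. That class held 65.5% and 64.1% of the summed FPKM of the triptonide libraries and 62.5% and 59.8% of that of the control libraries. An exact permutation test of 2 libraries against 2 cannot go below p = 0.333, which each of these classes reached, two-sided. Between 1 and 3 FPKM the groups overlapped (exact permutation p = 0.667).

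The calls with the widest gap between the groups show how far estimates of single transcripts could differ. They were picked for that gap, so their separation is no separate support. ENSMUST00000171247 had 74.4 and 73.2 FPKM in the triptonide libraries, against 0.488 and 0.426 FPKM in the control libraries. The triptonide libraries stood together far above both control libraries, and the log2 fold change was 6.28 ± 0.080 (SE; adjusted p = 0.000420 by limma). ENSMUST00000043419 had 201 and 122 FPKM in the triptonide libraries, against 1.34 and 1.04 FPKM in the control libraries. Its log2 fold change of 6.55 ± 0.31 (SE; adjusted p = 0.00345 by limma) was as large but less even, since one triptonide library stood well above the other. Both calls held with any 1 of the 6 libraries left out, with adjusted p of 0.00696 to 0.0228 for the first and 0.0213 to 0.0358 for the second.

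Falls of like clarity were seen from high control levels. ENSMUST00000121285 had 0.235 and 0.240 FPKM in the triptonide libraries, against 32.1 and 34.5 FPKM in the control libraries, a log2 change of -5.52 ± 0.14 (SE; adjusted p = 0.00128 by limma). ENSMUST00000108657 had 120 and 125 FPKM in the triptonide libraries, against 1142 and 1126 FPKM in the control libraries, a log2 change of -3.20 ± 0.098 (SE; adjusted p = 0.00153 by limma). The groups were far apart in both cases, but the second transcript stayed well expressed after triptonide while the first was near the bottom of the scale. The calls held with each library left out, with adjusted p of 0.0158 to 0.0261 for the first and 0.00696 to 0.0264 for the second. Transcripts of one locus overlap and share fragments that had to be divided among them, and a shift between transcripts of one gene cannot be told apart from a change of the gene. The transcript whose ID number follows that of ENSMUST00000108657 moved the other way. It had 622 and 578 FPKM in the triptonide libraries, against 86.5 and 75.4 FPKM in the control libraries, and was not called. Whether both belong to one gene was not tested.

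In each lower class the widest gap was that between presence and near absence. The first rise under 1 FPKM had 2.03 and 1.95 FPKM in the triptonide libraries, against 0.00444 and 0.00229 FPKM in the control libraries (adjusted p = 0.00566 by limma), a call lost without control replicate 1 (adjusted p = 0.0513). The first rise between 3 and 10 FPKM had 15.8 and 23.2 FPKM after triptonide and was listed at 0 in both control libraries, and 2 equal values of 0 add no spread, so its limma adjusted p of 0.00239 may be too small. The first fall between 3 and 10 FPKM had 0.00193 and 0.00250 FPKM in the triptonide libraries, against 18.6 and 16.6 FPKM in the control libraries (adjusted p = 0.00153 by limma). The first rise and fall between 1 and 3 FPKM were also near absence in the lower group. All of these transcripts were picked for their gap, so the lack of overlap is no separate support.

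The other first-ranked changes at 30 FPKM and over were smaller or less even. The first rise at 100 FPKM and over had 190 and 201 FPKM in the triptonide libraries, against 61.1 and 65.6 FPKM in the control libraries, a log2 change of 1.62 ± 0.056 (SE; adjusted p = 0.00204 by limma). The first fall between 30 and 100 FPKM had 19.2 and 12.0 FPKM in the triptonide libraries, against 94.1 and 141 FPKM in the control libraries, a log2 change of -2.88 ± 0.48 (SE; adjusted p = 0.0329 by limma). The groups were separate, but the libraries within each group differed widely. That call was lost without triptonide replicate 1 (adjusted p = 0.0925), triptonide replicate 2 (adjusted p = 0.148), control replicate 1 (0.121) or control replicate 2 (0.145). It was also lost with no filter on low values (adjusted p = 0.0698) and with the replicate number as a block (adjusted p = 0.0755).

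**Figure D3:**
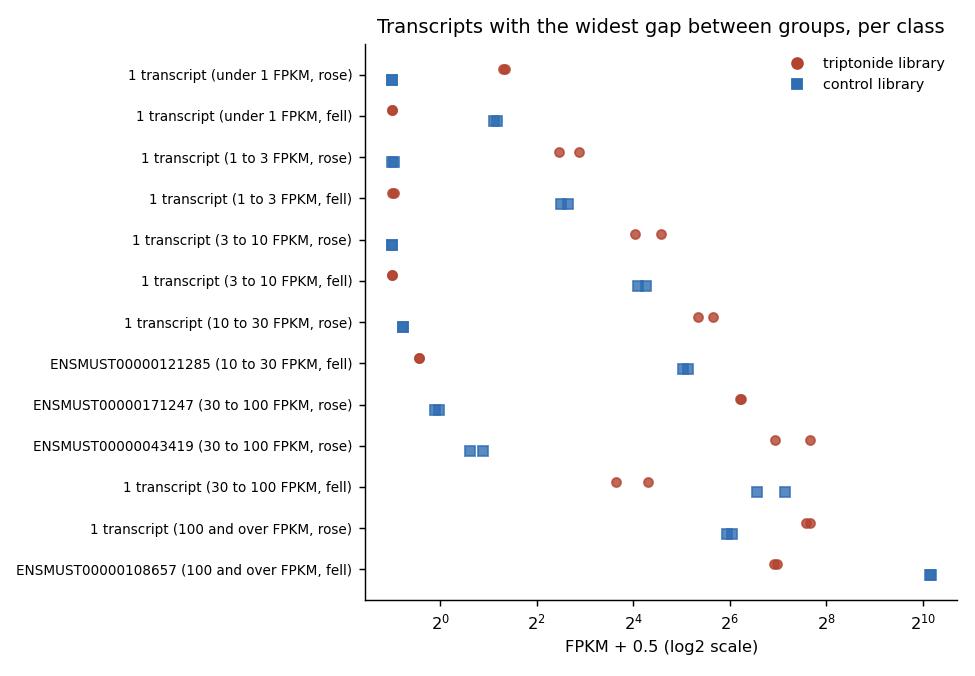
FPKM + 0.5 on a log2 axis in each triptonide library (circles) and control library (squares) for the transcripts with the widest gap between groups in each abundance class and direction, with the 4 named IDs; the class and direction of each transcript are given on the left. ENSMUST00000171247 stands at 74.4 and 73.2 FPKM after triptonide against 0.488 and 0.426 FPKM in control.

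How much of the response could be resolved followed from the spread between libraries, which shrank with abundance. Under 1 FPKM the median absolute difference between the 2 libraries of a group, in log2(FPKM + 0.5), was 0.27 for triptonide and 0.22 for control. The difference between a triptonide and a control library, averaged over all such pairs, had a median of 0.44 over the transcripts of that class. Between 10 and 30 FPKM the differences within a group were 0.10 for triptonide and 0.085 for control, and the difference between groups was 0.33. At 100 FPKM and over they were 0.069 and 0.076 within groups and 0.29 between them. In all 6 classes the groups differed by more than the libraries within a group, and this margin was widest in proportion at the abundant end. The 2 measures are not alike, since an average of several absolute differences tends to have a higher median than a single one. Part of the margin therefore comes from the measure.

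A call needed an absolute moderated t of 4.91, reached at an unadjusted p of 0.00531. At the median standard error of its class this asked for a log2 change of 1.21 under 1 FPKM, 1.25 between 1 and 3, and 0.88 between 3 and 10. It asked for 0.47 between 10 and 30 FPKM, 0.35 between 30 and 100 and 0.31 at 100 and over. In folds, a typical transcript had to change 2.31-fold in the lowest class and 1.24-fold in the highest. The smallest rise called was 0.63 under 1 FPKM and 0.18 at 100 FPKM and over. The median size of the change over all transcripts of a class, called or not, was far more even, at 0.35 under 1 FPKM and 0.26 at 100 and over. Across the classes, the share of transcripts called was higher where the change needed for a call was smaller, in the same order for all 6 classes.

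**Figure D4:**
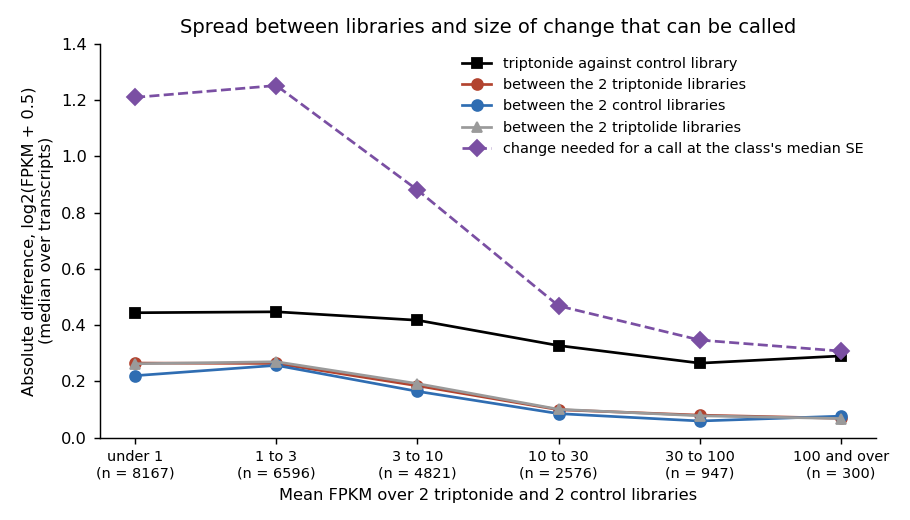
Median absolute difference in log2(FPKM + 0.5) between a triptonide and a control library, averaged over all such pairs (squares), between the 2 libraries of each group, a single difference (circles and triangles), and the log2 change needed for a call at the median standard error (diamonds, dashed), by abundance class. The needed change is 1.21 under 1 FPKM and falls to 0.31 at 100 FPKM and over. It applies to the log2 fold change, whose median size is 0.35 and 0.26 in these classes. The squares, at 0.44 and 0.29, also hold the spread of single libraries and are not a like measure.

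Many transcripts stayed unresolved. Both triptonide libraries lay above both control libraries for 6643 transcripts, 28.4% of those tested, and below both for 6954, or 29.7%. With 2 libraries against 2, separation in either direction has a probability of 0.333 when the groups do not differ. A large part of these shares can therefore arise without an effect. Without the adjustment for multiple tests 6451 transcripts, or 27.6%, had a limma p under 0.05, so 3963 with such a p were not called. Some p-values under 0.05 also arise without an effect. An estimate of 2-fold or more was seen for 2542 transcripts, 1635 upward and 907 downward, and 42.3% of them were called. For 9798 transcripts, or 41.9%, there was no call and the 95% confidence interval extended past 2-fold in at least one direction. This was the case for 49.1% of the transcripts under 1 FPKM, 18.3% between 10 and 30 and 8.0% at 100 FPKM and over.

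For other transcripts the size of any change was bounded. For 12013 transcripts, or 51.3%, the 95% confidence interval stayed inside 1 log2 unit to either side of 0, and 892 of these were called. That share was 43.6% under 1 FPKM and 42.7% between 1 and 3 FPKM, against 75.6% between 10 and 30 and 82.0% at 100 and over. The added 0.5 FPKM shrinks changes of low transcripts, so those inside the bound may differ more than 2-fold in FPKM. With a pseudocount of 0.1, 7916 intervals stayed inside 1 log2 unit. At the other end, 425 intervals lay wholly above a 2-fold rise and 106 wholly below a 2-fold fall. Tested against a minimum change of 1 log2 unit with limma's treat, 147 transcripts, or 0.628%, passed with adjusted p under 0.05, 124 upward and 23 downward. Of these, 64 had means between 1 and 3 FPKM, 60 between 3 and 10 FPKM, and 6 under 1 FPKM, where 8167 were tested. Under 1 FPKM the added 0.5 FPKM limits how large a change can appear, so this split depends on the scale. With a pseudocount of 0.1, 297 transcripts passed, and their split by class is not given.

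The triptolide libraries moved the calls without moving the estimates. Their 2 libraries differed from each other about as much as those of the other groups, with medians of 0.26 under 1 FPKM and 0.068 at 100 and over. A fit of the 4 triptonide and control libraries alone has 2 residual degrees of freedom in place of 3 and called 1552 transcripts, with 965 rises and 587 falls. Of these, 1357 were also called with the triptolide libraries in the fit, which is 87.4% of the smaller list and 54.5% of the larger. The median half-width of the confidence interval was 0.57 in both fits.

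The other 195 transcripts, 112 higher and 83 lower after triptonide, were called only in the fit of 4 libraries. Between the 2 triptolide libraries these differed by a median of 1.14 in log2(FPKM + 0.5), against 0.21 for all tested transcripts. The reverse was also seen. Transcripts called with the triptolide libraries in the fit differed by a median of 0.090 between them, and 1131 of these calls were absent from the fit of 4 libraries. A pair of abundant transcripts among the 195 shows what a wide triptolide pair did. They are described because they are the ones of the 195 at 100 FPKM and over with a 2-fold estimate. The first is the transcript whose ID number follows that of ENSMUST00000108657. It had 622 and 578 FPKM in the triptonide libraries, against 86.5 and 75.4 FPKM in the control libraries, yet its limma adjusted p was 0.372. Its triptolide libraries were at 9.68 and 423 FPKM, and without them the limma adjusted p was 0.0219. The second had 49.7 and 45.6 FPKM in the triptonide libraries, against 192 and 207 FPKM in the control libraries, with limma adjusted p = 0.311 with and 0.0236 without triptolide libraries that stood at 444 and 43.5 FPKM. In both transcripts the triptonide and control libraries were each close together and the groups far apart, and the spread came from the third group.

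Few calls survived the loss of a library. All 2488 calls kept their direction with any 1 of the 4 triptonide and control libraries left out, as non-overlapping groups must. Only 148 stayed called each time, 122 rises and 26 falls, of which 136 were at least 2-fold. Of these 148, 3 were under 1 FPKM, 47 between 1 and 3 FPKM, 54 between 3 and 10 FPKM, and 10 at 100 FPKM and over. By contrast 1989 calls, or 79.9%, were lost whichever of the 4 was left out. Leaving out a library also takes away a residual degree of freedom, so a lost call need not single out a library.

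Under 1 FPKM, and in the pooled count at 10 FPKM and over, the direction of the balance turned when either control library was left out. Few calls under 1 FPKM remained in those fits. The classes within the pooled count differed. At 100 FPKM and over falls led whichever of the 4 libraries was left out. Between 10 and 30 FPKM rises led without either control library, and also without triptonide replicate 2. Under 1 FPKM rises led by 56 to 10 without triptonide replicate 1 and by 19 to 3 without triptonide replicate 2. Without control replicate 1 there were 2 rises and 6 falls, and without control replicate 2 there were 6 and 10. At 10 FPKM and over, falls led by 135 to 87 without triptonide replicate 1 and by 60 to 51 without triptonide replicate 2. There, rises led by 54 to 24 without control replicate 1 and by 65 to 32 without control replicate 2. With these libraries left out, the class medians ranged from 0.071 to 0.13 under 1 FPKM and from -0.12 to -0.11 between 10 and 30 FPKM.

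The balance among abundant transcripts turned with the scaling, and that among rare ones did not. With median-of-ratios factors, rises made up 86.7% of the calls under 1 FPKM and 37.8% between 10 and 30 FPKM, close to the deposited scale. Division by the sum outside the 100 most abundant transcripts gave 87.6% and 50.3%, and quantile normalization gave 79.9% and 54.0%. At 100 FPKM and over the rises were 43.8% of the calls as deposited, 38.5% with median-of-ratios factors, 55.2% after division by that sum and 52.6% after quantile normalization. The excess of rises held below 3 FPKM under all 4 scalings, while the excess of falls at 10 FPKM and over did not. Over all classes rises were 59.0% of the calls as deposited, 58.9% with median-of-ratios factors, 66.6% after division by that sum and 64.6% after quantile normalization. The median over the 23407 tested transcripts stayed between -0.02 and 0.04.

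**Figure D5:**
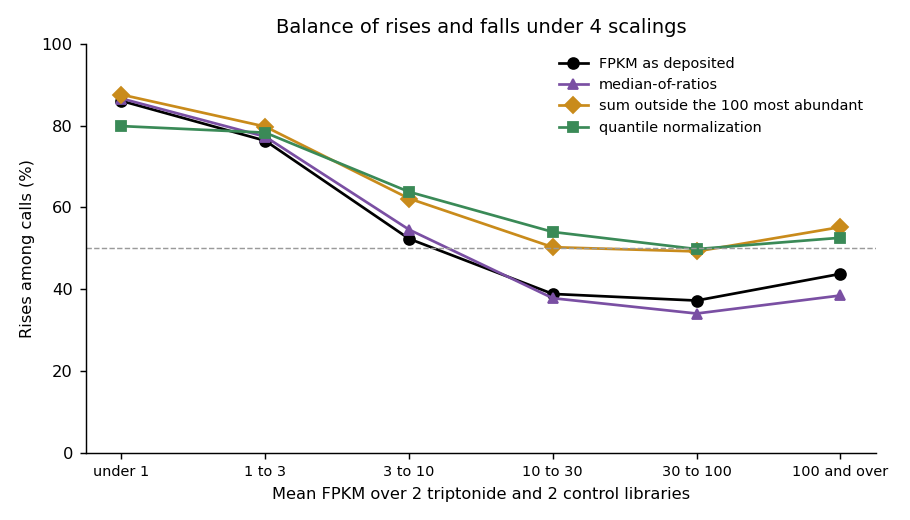
Percent of the calls of each abundance class that rose after triptonide against control, on FPKM as deposited and under 3 other scalings; the dashed line is an equal number of rises and falls. All 4 lines lie at 76.3% or more below 3 FPKM, and they straddle the dashed line between 10 and 30 FPKM, at 37.8% to 54.0%.

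Unannotated transcripts, those with locus numbers in place of Ensembl IDs, were found mainly at the low end. Of the 291 tested, 146 had means under 1 FPKM, where 52 rose, and 99 had means between 1 and 3 FPKM, where 27 rose. Over all classes 87 rose and 5 fell. Over all tested transcripts, annotated or not, 6.35% rose under 1 FPKM, 4.35% rose between 1 and 3 FPKM, and 6.27% rose and 4.36% fell in all.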

How the data were processed

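The deposited table gives FPKM values computed by the authors, 1 per transcript and library. Per the labels' protocols, ribosomal RNA was depleted and strand-specific libraries were read as 150-base paired ends. STAR and StringTie are named, with no version or role, in the submitters' processing notes, which also name the human build hg19, so no coordinates are given. The table has 65535 rows, the limit of an older spreadsheet format, and may be part of a longer one.

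Transcripts that reached 0.5 FPKM in 2 or more libraries were compared on log2(FPKM + 0.5) by limma 3.58.1 (R 4.3.3), using a single fit of 3 groups with an intensity trend (3 residual and 1.68 prior degrees of freedom). Benjamini-Hochberg adjustment ran over all tested transcripts. The fit was also run on simulated libraries with independent normal noise, and the outcome is not reported here. Described transcripts were the calls with the widest gap between the groups over all classes, at 30 FPKM and over, and in each class. The comparison, classes and this rule were chosen with earlier results of these data known. Relative depth came from steps among values of 0.01 to 0.2 FPKM, with 13 of 15 library pairs within 0.015 log2 units of the fitted ratio. Alternatives varied the pseudocount, filter, scaling, libraries, moderation, library weights, replicate block and class limits. Planned gene lists and cell type markers were not run, since IDs could not be paired with genes.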

Additional observations from a re-analysis of the deposited data

How the results depend on the processing

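The fit of 4 libraries gave 1552 calls (965 rises, 587 falls), with 341 rises and 47 falls under 1 FPKM, 230 and 360 at 10 FPKM and over, and 42 passing treat. Without a filter there were 1273 calls (811 rises, 462 falls; 535 and 124 at least 2-fold), 246 rises under 1 FPKM, 207 rises and 259 falls at 10 FPKM and over, and 35317 intervals within 1 log2 unit of 0 among more transcripts. Without the intensity trend 539 fell, with 131 rises and 198 falls at 10 FPKM and over. A pseudocount of 0.1 gave 7916 such intervals and 297 transcripts passing treat, a pseudocount of 1 gave 511 rises of 2-fold and 76 passing treat, and treat at 0.5 log2 units passed 354. A filter at 1 FPKM left 34 falls under 1 FPKM. Limits on the control mean gave 817 rises and 42 falls under 1 FPKM, limits on the triptonide mean gave 303 and 159, and the lowest quintile had 54 falls. With the replicate number as a block there were 598 calls (419 rises, 179 falls; 339 and 86 at least 2-fold), 63 rises and 14 falls under 1 FPKM, 119 and 116 at 10 FPKM and over, and 37 passing treat. The labels tie the numbers to no shared culture or day. Same-numbered triptonide and control libraries did not deviate together over all transcripts (correlation 0.0096). A shared culture or batch that moved only part of the transcripts was not tested.

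With any 1 of the 6 libraries left out, calls numbered 242 to 1466, rises 179 to 911 and falls 63 to 555, with 171 to 673 and 52 to 186 at least 2-fold. Under 1 FPKM there were 2 to 286 rises and 3 to 48 falls, at 10 FPKM and over 51 to 227 and 24 to 345. Intervals within 1 log2 unit of 0 numbered 8884 to 12050, and 34 to 71 transcripts passed treat. Where a group had 1 library left, it is assumed to vary like the others. The cause of these changes was not tested beyond what each setting does by construction.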

Other observations

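Some transcripts disagreed between the 2 libraries of a group. Values below 0.1 FPKM in one library and at least 1 FPKM in the other were seen under 1 FPKM for 173 transcripts in the triptonide pair and 138 in the control pair, and between 10 and 30 FPKM for 11 and 20. At 100 FPKM and over there was 1 in each pair. The one in the triptonide pair had 9448 and 0.075 FPKM in the triptonide libraries, against 6587 and 5598 FPKM in the control libraries. Its log2 fold change of -6.36 has 95% confidence limits of -18.4 and 5.66 (adjusted p = 0.447 by limma). Without it the class at 100 FPKM and over summed to 249658 and 241739 FPKM after triptonide, against 225871 and 203611 FPKM in control, and the groups still did not overlap.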
